A study of Mus musculus with 22 samples.

Results

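Metallothioneins and zinc transporters were followed in mouse liver as a set of 8 genes: Mt1, Mt2, Slc30a1, Slc30a10, Slc39a4, Slc39a8, Slc39a10 and Slc39a14. They were taken by gene symbol from a table of read counts for 55573 genes, by a rule that uses no measured value, although the set was proposed with earlier results of these data known. All 8 passed the filter of a mean count of at least 10 over the libraries and were tested among 14062 genes.

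The counts come from mRNA libraries of 22 livers, 1 per mouse, of C57BL/6 mice aged 3 months. Control mice (Cre) were Flcn WT/WT and carried Albumin-Cre+/-, so both genotypes expressed the recombinase. Liver-Flcn-/- mice, labelled FLCN KO, had both Flcn alleles floxed (Flcn f/f) and carried Albumin-Cre. Its promoter is active in hepatocytes, so liver cells without that activity may keep the gene. From 6 weeks of age mice ate chow or a methionine and choline deficient (MCD) diet for 6 weeks, which gave 6 Cre mice on chow, 5 Cre mice on MCD, 5 liver-Flcn-/- mice on chow and 6 liver-Flcn-/- mice on MCD. Chow and MCD feed came from different suppliers, and the zinc, copper and manganese content of either is not given in the sources used here, so the missing nutrients and the other ingredients cannot be told apart. Each library held between 13751347 and 21144388 counted reads. Levels are given as CPM (counts of a gene over the library total, rescaled to a common library size) with TMM factors, which correct library totals for composition. Differences are log2 fold changes from edgeR's quasi-likelihood test with Benjamini-Hochberg adjusted p-values, and a gene was called at an adjusted p under 0.05.

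Metallothioneins are small cysteine-rich proteins that bind zinc and copper. Their genes are induced by metals through MTF1, a zinc-sensing transcription factor that binds metal response elements, and also by glucocorticoids, IL-6 and oxidative stress. SLC30 transporters move zinc out of the cytosol, to the outside or into organelles, and SLC39 (ZIP) transporters bring it in. Several members also carry manganese: SLC30A10 exports it from hepatocytes, SLC39A8 takes it back up from bile, and SLC39A14 takes it up from blood together with zinc and iron. The liver takes these metals up from blood and sends manganese out into bile.

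Flcn, the deleted gene, was lower in liver-Flcn-/- livers on chow by a log2 fold change of -0.63 ± 0.17 (SE, adjusted p = 0.0249), from 31.7 ± 4.91 to 20.4 ± 2.78 CPM (SD). On MCD the difference stood at -0.16 ± 0.17 (adjusted p = 0.567), with 29.2 ± 8.42 CPM in Cre and 26.0 ± 5.13 CPM in liver-Flcn-/- livers. On MCD the 2 genotypes overlapped, so the level of Flcn does not separate them there. Within sexes the MCD difference had opposite signs and was not called in either, at -0.65 in males (36.2 ± 5.26 CPM in Cre and 23.1 ± 5.21 CPM in liver-Flcn-/- livers) and 0.24 in females (24.5 ± 6.82 and 28.9 ± 3.67 CPM). The chow call was lost without Cre Chow 6 (-0.56) or FLCN KO Chow 3 or 4 (-0.57 and -0.62), with library totals as the only scaling (-0.48), with replicate number as a block (-0.57), within female (-0.55) and male (-0.71) livers, without the 5 libraries of low uniquely mapped share (-0.55) and without the 2 libraries with both Xist and Y-linked reads (-0.63), and remained negative in each. Counts over the whole gene include exons that the deletion leaves and RNA of cells without the recombinase.

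Some libraries stood apart from the others. Sex is not among the labels. Read from the counts of Xist and of Y-linked genes, it gave 12 female and 10 male livers, with both sexes in each group: 3 female and 3 male on chow and 3 and 2 on MCD in Cre mice, and 3 and 2 on chow and 3 and 3 on MCD in liver-Flcn-/- mice. Cre MCD 1 and FLCN KO Chow 2 held Xist together with Y-linked reads at 15.6 and 15.1% of the male median. They were the 2 female libraries above a cut of 10%, and are meant wherever libraries with both are left out. Other female libraries held fewer Y-linked reads, up to 6.81% of the male median in FLCN KO MCD 3. The 5 male chow livers were also the 5 libraries with under 75% uniquely mapped reads, so on chow sex and that share cannot be told apart. Cre MCD 3 held 2628 CPM of 10 skeletal muscle genes, led by Myh1 at 608.0 CPM, where the median Cre MCD library held 17.1 CPM.

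Mt2 and Mt1 lie next to each other on chromosome 8 (GRCm38, GENCODE M21), with 5513 bases between them. Mt2 (ENSMUSG00000031762) spans chr8:94172664-94173568 and Mt1 (ENSMUSG00000031765) chr8:94179082-94180327, both on the plus strand. Metal response elements share the core TGCACNC or TGCGCNC, and these 7 bases were searched on both strands of the RefSeq promoters (GRCm38.p6), from 250 bases before to 50 after each annotated start. RefSeq promoters were matched for 6 of the 8 members. The promoter of Mt2 held 4 matches and that of Mt1 held 3, and neither gene's matches overlapped each other. Among 32851 promoters of that length 25.7% held at least 1 match, 7.11% at least 2, 1.97% at least 3 and 0.517% at least 4. The Mt1 and Mt2 stretches are shown because these genes changed most with diet, and Slc30a1 because its promoter also held matches while its level was not called in any comparison of the 4 groups with TMM factors. They are written 5′ to 3′ on the plus strand with matches in capitals. The upstream bases come first, then the bases around the annotated start that hold the remaining matches. Where transcription begins in these livers was not examined.
Mt1 upstream, chr8:94178839-94179073: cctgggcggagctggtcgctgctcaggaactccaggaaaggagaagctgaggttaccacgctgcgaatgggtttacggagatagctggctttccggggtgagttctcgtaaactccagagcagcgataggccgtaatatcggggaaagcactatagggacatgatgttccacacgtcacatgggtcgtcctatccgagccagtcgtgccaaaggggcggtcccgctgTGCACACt
Mt1 at the start, chr8:94179091-94179115: TGCACTCcgcccgaaaagTGCGCTC
Mt2 upstream, chr8:94172368-94172602: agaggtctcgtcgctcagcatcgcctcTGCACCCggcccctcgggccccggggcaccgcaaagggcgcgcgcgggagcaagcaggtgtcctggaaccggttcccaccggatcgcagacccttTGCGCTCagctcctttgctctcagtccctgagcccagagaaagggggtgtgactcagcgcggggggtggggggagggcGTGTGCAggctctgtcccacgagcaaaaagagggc
Mt2 at the start, chr8:94172622-94172628: GTGCGCA
Slc30a1 upstream, chr1:191906531-191906765: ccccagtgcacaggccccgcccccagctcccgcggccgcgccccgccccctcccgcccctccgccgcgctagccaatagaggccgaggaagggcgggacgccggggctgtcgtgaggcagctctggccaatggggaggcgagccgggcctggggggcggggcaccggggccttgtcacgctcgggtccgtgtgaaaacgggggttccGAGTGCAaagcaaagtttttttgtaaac
Slc30a1 at the start, chr1:191906811-191906817: GAGCGCA
Slc30a1 held 2 matches, both on the minus strand. Slc30a10 held 3, of which 1 pair overlapped on opposite strands, Slc39a8 held 1 in 1 of its 2 promoters, and both promoters of Slc39a10 held 0. A match is a stretch of letters and says nothing of whether MTF1 binds there.

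The first question was how the MCD diet changed the members in control livers. In Cre mice the diet raised both metallothioneins by more than any other member and lowered Slc30a10 and Slc39a8, while Slc30a1, Slc39a4, Slc39a10 and Slc39a14 were not called. Mt1 rose 13.7-fold and Mt2 29.9-fold, whereas Slc30a10 fell 5.17-fold and Slc39a8 1.84-fold. The count of 4 called among 8 has to be read against a diet that moved much of the liver transcriptome, since 57.5% of all tested genes were called in this comparison (29.3% higher and 28.2% lower).

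Mt1 stood at 2.45, 17.0, 23.7, 41.0, 4.80 and 4.98 CPM in the 6 Cre livers on chow (lowest 2.45, median 11.0, highest 41.0) and at 231, 236, 180, 155 and 280 CPM in the 5 on MCD. The groups did not overlap, and relative to its mean the chow group spread more widely than the MCD group. On the log2 scale Mt1 rose by 3.78 ± 0.47 (SE; adjusted p = 7.41e-07). Mt2, which encodes the other main liver metallothionein, stood at 0.474, 4.01, 7.97, 12.0, 1.22 and 2.17 CPM on chow and at 177, 186, 70.9, 86.3 and 188 CPM on MCD. Again every MCD liver was above every chow liver, and the lowest chow values of both genes came from the same 3 mice. Its log2 fold change was 4.90 ± 0.50 (adjusted p = 5.19e-08). The chow levels rest on few reads, from 31 counts of Mt1 and 6 of Mt2 in Cre Chow 1.

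Slc30a10, the manganese exporter, stood at 40.5 to 92.3 CPM in the Cre chow livers with a median of 85.2 CPM. On MCD the 5 livers had 17.5, 6.42, 15.3, 15.2 and 19.6 CPM, all below the lowest chow liver, and Cre MCD 2 was the lowest. The log2 fold change was -2.37 ± 0.26 (adjusted p = 1.16e-07). Slc39a8, an importer of zinc and manganese, stood at 31.2 to 47.0 CPM on chow (median 42.5) and at 23.4, 21.5, 23.2, 20.8 and 24.1 CPM on MCD. These groups were also apart, with a log2 fold change of -0.88 ± 0.12 (adjusted p = 3.19e-06). For each of these 4 genes the exact permutation test on log2 CPM gave p = 0.00433, the smallest that 6 against 5 livers allow, and 32.5% of all tested genes had groups that did not overlap.

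The other 4 members showed no call. Slc30a1, the zinc exporter of the cell surface and itself a known MTF1 target, had 44.3 ± 2.35 CPM (SD, n = 6) on chow and 44.9 ± 12.8 CPM (n = 5) on MCD, a log2 fold change of 0.02 ± 0.14 (adjusted p = 0.920). Its MCD livers ranged from 32.9 to 64.7 CPM around the chow values. Slc39a14, a zinc, iron and manganese importer, had 158 ± 22.4 CPM on chow and 158 ± 26.5 CPM on MCD, with a log2 fold change of 0.00 ± 0.14 (adjusted p = 0.999). Slc39a4, a zinc importer best known from the intestine, differed by 0.09 ± 0.20 (adjusted p = 0.730) and Slc39a10, another plasma membrane importer, by 0.08 ± 0.26 (adjusted p = 0.807). Within males Slc39a4 was called higher on MCD, at 0.54 ± 0.21 (adjusted p = 0.0482), and within females it stood at -0.25 ± 0.19 (adjusted p = 0.288), while the difference between the sexes was 0.80 ± 0.29 (adjusted p = 0.127). TMM factors were 0.815 to 0.889 in the Cre chow libraries and 1.06 to 1.2 in the Cre MCD libraries. With library totals as the only scaling the median of all genes rose from 0.01 to 0.43. On that scale 9648 of the 14062 tested genes were called, 7900 higher and 1748 lower, and so were 7 members. Slc30a1 and Slc39a14 stood at 0.43 and Slc39a4 at 0.50, while Slc30a10 and Slc39a8 still fell by 1.97 and 0.46 on the log2 scale.

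**Figure D1:**
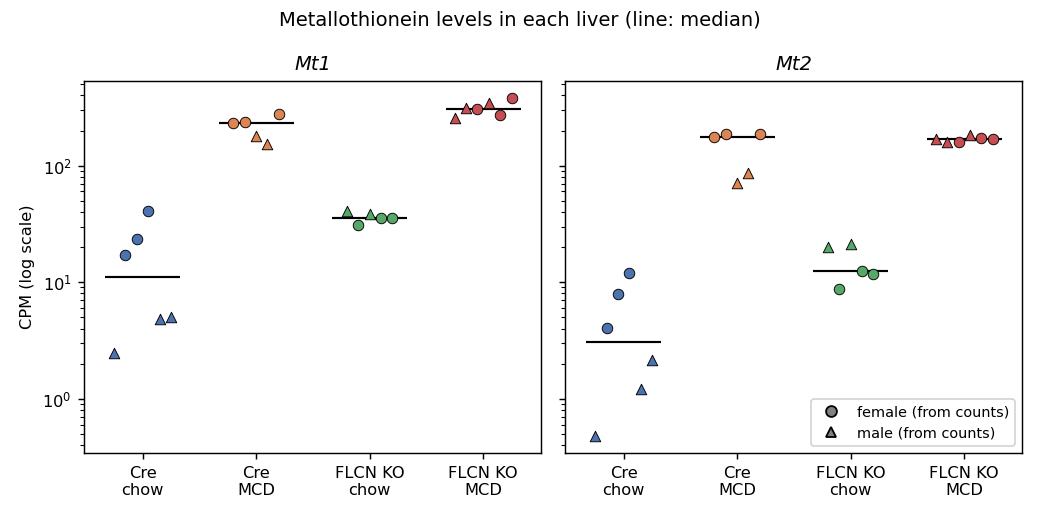
Mt1 and Mt2 in each liver in CPM on a log axis, by group, with circles for female and triangles for male livers as read from the counts and a line at the group median. The Cre chow livers spread from 2.45 to 41.0 CPM for Mt1 with the 3 males lowest, and all MCD livers lie above all chow livers.

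In liver-Flcn-/- mice the same question gave the same 4 genes in the same directions, together with a fall of Slc39a4. Mt1 rose 8.58-fold and Mt2 11.4-fold, and Slc30a10 fell 2.49-fold, Slc39a8 1.75-fold and Slc39a4 1.45-fold. Of all tested genes 45% were called (22.5% in each direction), and 29.2% had groups that did not overlap, against 5 of the 8 members on both counts.

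Mt1 stood at 41.0, 31.2, 38.4, 35.4 and 35.2 CPM in the 5 liver-Flcn-/- livers on chow and at 255 to 380 CPM, with a median of 308 CPM, in the 6 on MCD. Unlike the Cre chow livers, these chow livers lay within a narrow range. The log2 fold change was 3.10 ± 0.48 (adjusted p = 2.06e-05). Mt2 stood at 19.8, 8.73, 21.2, 12.5 and 11.9 CPM on chow and at 158 to 183 CPM (median 169) on MCD, again with no overlap, and rose by 3.51 ± 0.49 (adjusted p = 5.93e-06).

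Slc30a10 stood at 66.4, 72.8, 86.5, 91.6 and 61.8 CPM on chow and at 22.3 to 41.1 CPM (median 27.7) on MCD, a log2 fold change of -1.32 ± 0.24 (adjusted p = 0.000123). Slc39a8 stood at 37.1, 52.0, 46.7, 59.3 and 53.0 CPM on chow and at 22.6 to 33.3 CPM (median 28.7) on MCD, a change of -0.80 ± 0.12 (adjusted p = 1.25e-05). In both genes every MCD liver was below every chow liver. Slc39a4 stood at 62.6, 54.4, 79.3, 58.5 and 62.4 CPM on chow and at 32.3 to 51.8 CPM (median 45.0) on MCD, also without overlap, and fell by 0.53 ± 0.20 on the log2 scale (adjusted p = 0.0357). The Slc39a4 call was lost without FLCN KO Chow 1, 3 or 5 or FLCN KO MCD 3 or 5, where the log2 fold change was -0.54, -0.44, -0.54, -0.46 and -0.50, and with library totals as the only scaling it was -0.27 (adjusted p = 0.281). It was also lost without a filter on low counts (-0.53), without the 5 libraries of low uniquely mapped share (-0.42), with replicate number as a block (-0.48) and within males (-0.54). Slc30a1, Slc39a10 and Slc39a14 were not called, at 0.24 ± 0.14, -0.35 ± 0.26 and 0.20 ± 0.14 (adjusted p = 0.177, 0.294 and 0.254). On library totals Slc30a1 was called at 0.51 and Slc39a14 at 0.46, where the median of all genes was 0.27.

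**Figure D2:**
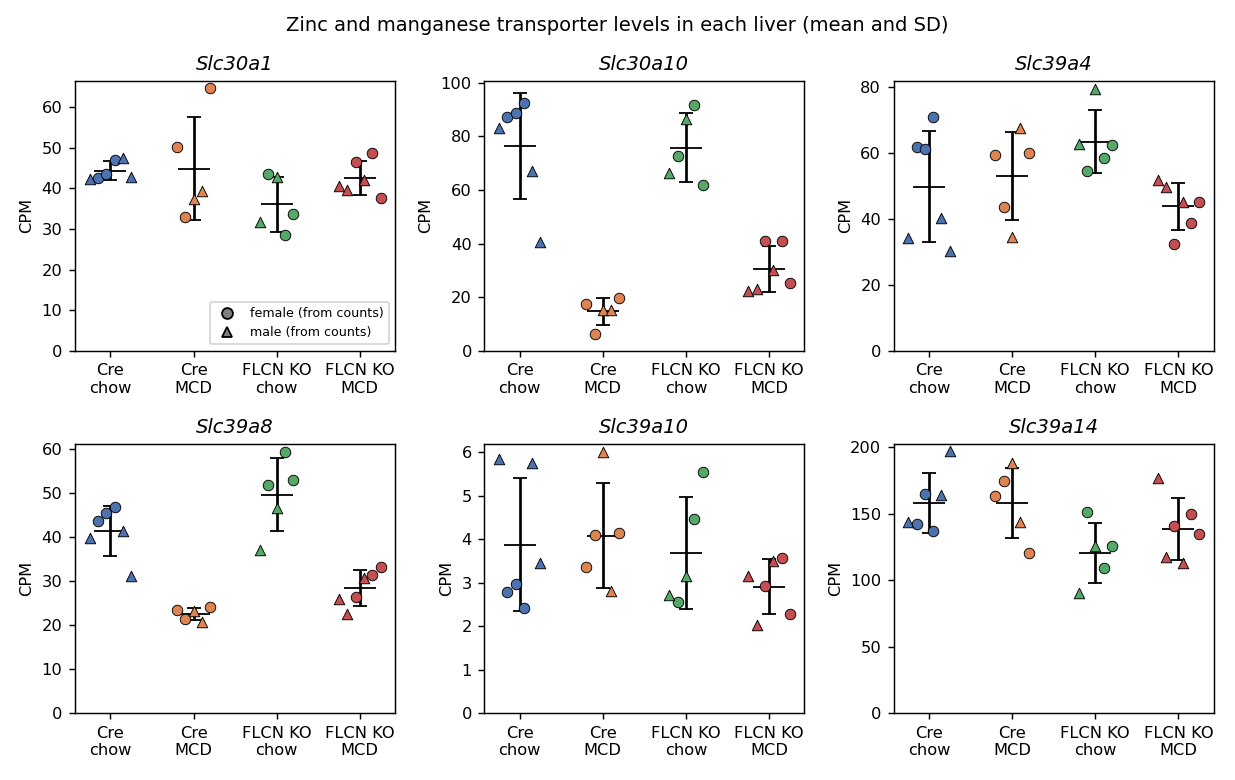
The 6 transporters in each liver in CPM, by group, with circles for female and triangles for male livers, a dash at the mean and bars for the SD. Slc30a10 is at 40.5 CPM or more in all chow livers and at 41.1 CPM or less in all MCD livers, and Slc30a1 and Slc39a14 overlap across the 4 groups.

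Levels of different genes can be compared only per length, here as CPM per kb of the union of annotated exons. In Cre chow livers the order was Slc39a4 (16.0 ± 5.45), Slc39a14 (15 ± 2.13), Slc30a10 (13.1 ± 3.38), Mt1 (12.6 ± 12.0), Slc30a1 (8.45 ± 0.448), Mt2 (7.90 ± 7.66), Slc39a8 (5.41 ± 0.741) and Slc39a10 (0.636 ± 0.251), all in CPM per kb with the SD over 6 livers. Neighbours in that order differed by less than their spread except Slc39a10, which lay far below the rest. On MCD both metallothioneins were at the top: Cre livers had 241 ± 98.7 CPM per kb of Mt2 and 174 ± 39.7 of Mt1, against 17.1 ± 4.33 of Slc39a4, the next gene. The Mt1 exons together cover its whole span of 1246 bases, more than the 588 bases of Mt2. The level of Mt1 per kb, its place in the order and the ratio of Mt1 to Mt2 therefore depend on that annotation. Measured the same way in all livers, the ratio per kb had a median of 1.73 in Cre chow livers (1.08 to 2.44), 0.703 in Cre MCD livers (0.598 to 1.2), 1.33 in liver-Flcn-/- chow livers (0.854 to 1.69) and 0.897 in liver-Flcn-/- MCD livers (0.709 to 1.06). The ranges of the ratio overlapped between the diets in both genotypes.

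Next, the genotypes were compared on each diet. On chow, Mt2 was the only member called in the fit of all 4 groups, higher in liver-Flcn-/- livers by 1.64 ± 0.47 on the log2 scale (adjusted p = 0.0309). Of all tested genes 8.62% were called, 5.52% higher and 3.1% lower. Mean Mt2 was 4.65 ± 4.51 CPM (SD, n = 6) in Cre and 14.8 ± 5.42 CPM (n = 5) in liver-Flcn-/- livers, and the groups overlapped because the highest Cre liver had 12.0 CPM. Mt1 was 15.6 ± 14.9 and 36.3 ± 3.70 CPM, a 2.30-fold difference that was not called (adjusted p = 0.0914). Slc39a14 differed by -0.39 ± 0.14 (adjusted p = 0.0873), and the remaining members by between -0.30 and 0.35, none of them called. No member had groups that did not overlap, against 6.94% of all genes. The Mt2 call was lost without Cre Chow 2, 5 or 6 or FLCN KO Chow 1, 3 or 4, where its difference stayed between 1.44 and 1.69, with only the groups compared (1.67, adjusted p = 0.105) and with replicate number as a block (1.68, adjusted p = 0.0713). Mt1 was called without Cre Chow 4 (1.76), by limma-voom (1.75) and with sex (1.40) or the uniquely mapped share (1.47) as covariate, and Slc39a14 without FLCN KO Chow 2 (-0.49). Markers of other cells were also compared: 1 of 8 macrophage, 2 of 6 cholangiocyte, 1 of 7 endothelial and 1 of 5 erythroid markers were higher and 1 of 8 hepatocyte markers lower in liver-Flcn-/- livers, and their part in the metallothionein levels was not tested.

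On chow the genotype difference of the metallothioneins was large in male livers and not called in female livers. The split by sex was made after the spread of the Cre chow livers had been seen, in an edgeR fit of the 8 groups by sex. Mt1 stood at 17.0, 23.7 and 41.0 CPM in the 3 female Cre chow livers and at 2.45, 4.80 and 4.98 CPM in the 3 males, whereas in liver-Flcn-/- mice on chow the 3 females had 31.2, 35.4 and 35.2 CPM and the 2 males 41.0 and 38.4 CPM. Male livers were thus the lowest in one genotype and the highest in the other. In Cre chow livers the male minus female difference was -2.73 ± 0.28 on the log2 scale for Mt1 (adjusted p = 2.76e-06) and -2.64 ± 0.36 for Mt2 (adjusted p = 9.14e-05). Slc39a4 was lower in males there too, at -0.89 ± 0.19 (adjusted p = 0.00839), and 6.62% of all tested genes were called. In liver-Flcn-/- chow livers the difference between males and females was 0.23 ± 0.27 for Mt1 and 0.89 ± 0.30 for Mt2 (adjusted p = 0.777 and 0.141), with 2.62% of genes called.

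Among male chow livers, liver-Flcn-/- exceeded Cre by 3.28 ± 0.30 for Mt1 (adjusted p = 1.45e-06), from 4.08 ± 1.41 CPM (SD, n = 3) to 39.7 ± 1.83 CPM (n = 2), and by 4.00 ± 0.37 for Mt2 (adjusted p = 1.49e-06), from 1.29 ± 0.850 to 20.5 ± 0.976 CPM. Slc39a4 was the only other member called there, at 1.02 ± 0.21 (adjusted p = 0.00804), from 35.0 ± 5.01 to 70.9 ± 11.8 CPM. The background within males was 3.9% of genes. Among female chow livers no member was called, against 4.35% of genes. Mt1 differed there by 0.32 ± 0.24 (27.2 ± 12.4 and 33.9 ± 2.39 CPM) and Mt2 by 0.46 ± 0.28 (8.01 ± 4.02 and 11.0 ± 2.02 CPM), with adjusted p of 0.551 and 0.427. The test of the difference between the sexes itself gave 2.96 ± 0.38 for Mt1 and 3.53 ± 0.47 for Mt2 (adjusted p = 0.00342 for each), in a test that called 6 of all 14062 genes (0.0427%). For Slc39a4 the difference between the sexes was 1.17 ± 0.29 (adjusted p = 0.347). Because the 5 male chow livers are the 5 libraries with a low uniquely mapped share, leaving those libraries out kept female chow livers alone, with Mt2 at 0.46 (adjusted p = 0.594) and no member called. Group sizes of 2 and 3 also limit these estimates, and the spread in them is shared over all 8 groups.

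**Figure D3:**
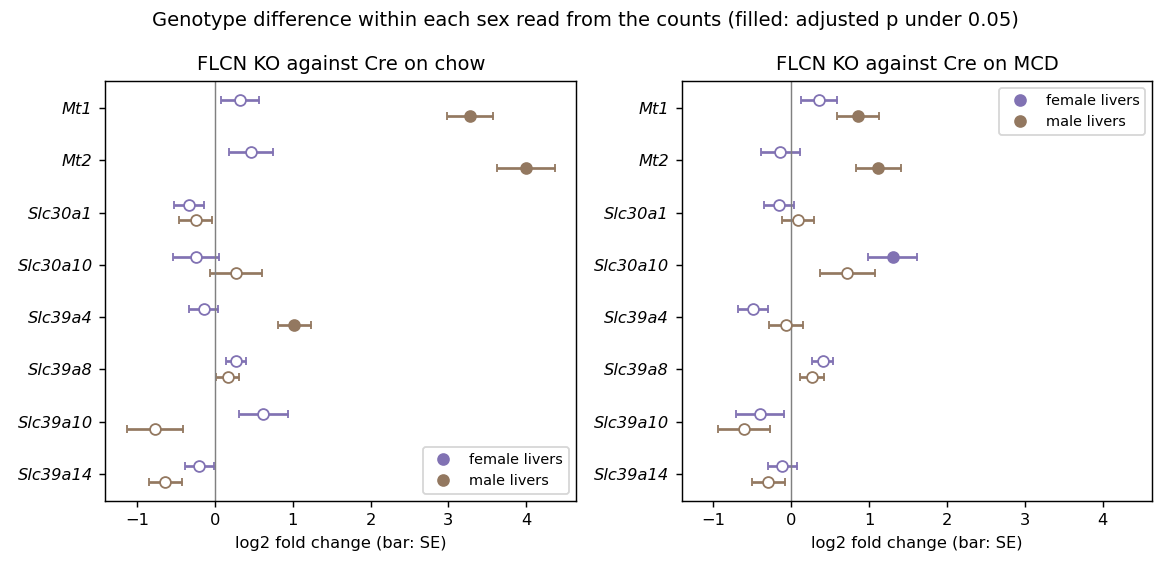
Log2 fold change of liver-Flcn-/- (FLCN KO) against Cre for the 8 members within female and within male livers, on chow and on MCD, with bars for the SE and filled points for adjusted p under 0.05. On chow Mt1 and Mt2 are at 3.28 and 4.00 in males and at 0.32 and 0.46 in females.

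On MCD, Slc30a10 was the only member called between the genotypes in the fit of the 4 groups, and it was higher in liver-Flcn-/- livers. Its 6 values of 22.3 to 41.1 CPM all lay above the 5 Cre values of 6.42 to 19.6 CPM. The difference was 1.04 ± 0.25 (adjusted p = 0.00553), a 2.06-fold higher level, against a background of 16.6% of genes called, 8.06% higher, 8.53% lower and 8.61% with groups that did not overlap. The exact permutation test gave p = 0.00433. It was called without any 1 library, with a difference from 0.85 to 1.16. Within female livers it was 1.30 ± 0.31 (adjusted p = 0.00975) and within male livers 0.72 ± 0.35 (adjusted p = 0.219), where 13 and 9.86% of genes were called, and the difference between the sexes was -0.58 ± 0.46 (adjusted p = 0.675, with 0.228% of genes called). In the same comparison 5 of 8 stellate cell and 4 of 8 macrophage markers were lower in liver-Flcn-/- livers, as were 1 of 8 hepatocyte and 1 of 4 neutrophil markers. All 10 skeletal muscle markers were lower too, where Cre MCD 3 and 4 held 2628 and 131 CPM of them. The other Cre MCD livers held 1.18 to 17.1 CPM and the liver-Flcn-/- MCD livers 1.03 to 60.9 CPM. Of the endothelial markers 1 of 7 was higher. Of the cholangiocyte markers 2 of 6 were higher, but the median log2 fold change of that list was -0.43. Its summed level had a median of 134 CPM in Cre and 124 CPM in liver-Flcn-/- livers. The part of these cells in the Slc30a10 difference was not tested.

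Slc39a8 was 22.6 ± 1.40 CPM in Cre and 28.4 ± 4.09 CPM in liver-Flcn-/- livers on MCD, a difference of 0.33 ± 0.12 (adjusted p = 0.0607) that was called without Cre Chow 6, FLCN KO Chow 1 or FLCN KO MCD 2, at 0.33, 0.33 and 0.39, with sex (0.35) or the uniquely mapped share (0.36) as covariate and without the 5 libraries of low uniquely mapped share (0.33). Mt1 stood at 216 ± 49.4 and 311 ± 45.7 CPM (0.52 ± 0.43, adjusted p = 0.450) and Mt2 at 142 ± 58.0 and 169 ± 9.29 CPM (0.25 ± 0.43, adjusted p = 0.746). With only the groups compared Mt1 was called, at 0.52 ± 0.15 (adjusted p = 0.0367). The 2 male Cre MCD livers held 155 and 180 CPM of Mt1 and 70.9 and 86.3 CPM of Mt2, below the 3 females at 231, 236 and 280 CPM and 177, 186 and 188 CPM. In that group the male minus female difference was -1.23 ± 0.29 for Mt2 (adjusted p = 0.0467) and -0.58 ± 0.27 for Mt1 (adjusted p = 0.326), with 1.14% of genes called. In liver-Flcn-/- MCD livers it was 0.03 ± 0.25 for Mt2 and -0.08 ± 0.23 for Mt1, with 0.0569% of genes called. Within males the genotype difference on MCD was 1.12 ± 0.29 for Mt2 (adjusted p = 0.0189) and 0.86 ± 0.27 for Mt1 (adjusted p = 0.04997), and within females it was -0.14 ± 0.25 and 0.36 ± 0.23 (adjusted p = 0.770 and 0.354). The difference between the sexes on MCD was 1.26 ± 0.38 for Mt2 and 0.50 ± 0.35 for Mt1 (adjusted p = 0.275 and 0.644).

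**Figure D4:**
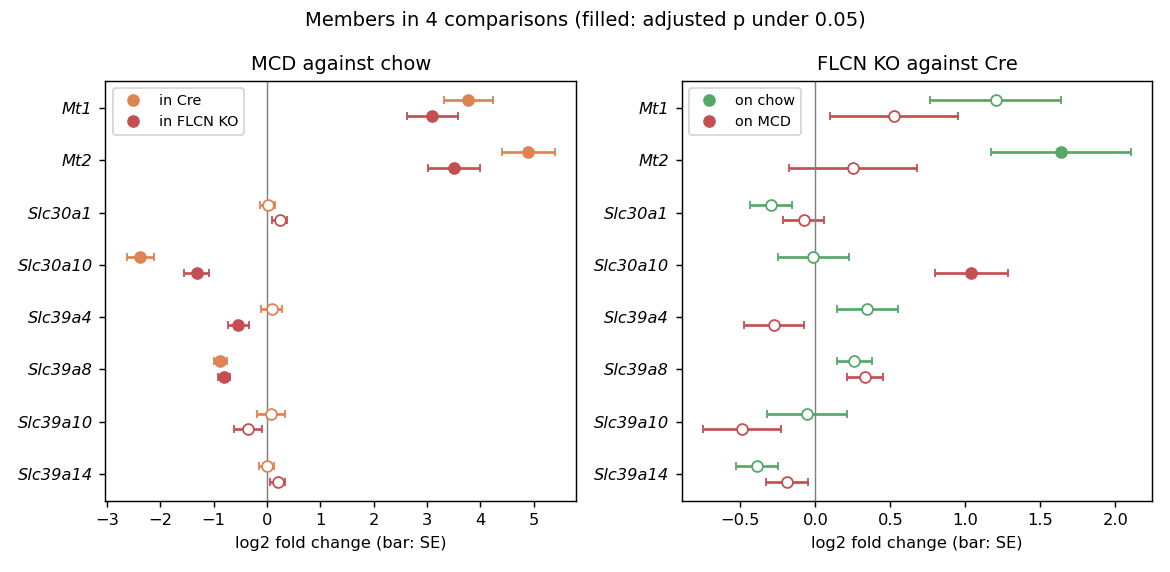
Log2 fold change of the 8 members for MCD against chow in each genotype (left) and for liver-Flcn-/- (FLCN KO) against Cre on each diet (right), with bars for the SE and filled points for adjusted p under 0.05. The 2 panels have different horizontal scales. Mt1 and Mt2 lie between 3.10 and 4.90 for diet, and Slc30a10 is at 1.04 for genotype on MCD.

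Whether the diet response differed between genotypes was tested as the interaction. No member was called by edgeR, where 8.83% of all tested genes were (3.29% positive and 5.54% negative), although 3 had an unadjusted p under 0.05, and limma-voom called 0 and DESeq2 called 1. Slc30a10 came nearest, with a fall that was smaller by 1.05 ± 0.34 in liver-Flcn-/- mice (adjusted p = 0.0559), and it was called without Cre Chow 6, Cre MCD 5 or FLCN KO MCD 1 or 2, at 1.12 to 1.18, by DESeq2 (1.04), with sex (1.06) or the uniquely mapped share (1.10) as covariate and with replicate number as a block (1.25). Mt2 rose less by 1.39 (interaction -1.39 ± 0.63, adjusted p = 0.174, called at -1.93 without Cre Chow 4), and Slc39a4 had an interaction of -0.62 ± 0.29 (adjusted p = 0.180). For Mt1 it was -0.68 ± 0.61 (adjusted p = 0.540). Within males the interaction was -2.42 ± 0.39 for Mt1 and -2.88 ± 0.47 for Mt2 (adjusted p = 0.00550 for each, 1.38% of genes called), and within females Slc30a10 had 1.55 ± 0.43 (adjusted p = 0.0350, 7.16% called), while the test of the difference between the sexes called none of the 3 (adjusted p of 0.578, 0.664 and 0.958) and 0 of all genes. Within Cre mice the diet response of Mt1 was larger in males than in females by 2.16 ± 0.38 (adjusted p = 0.00386, 3.19% of genes called), with 5.35 ± 0.31 in males and 3.19 ± 0.26 in females. Mt2 rose by 5.93 ± 0.37 in males and 4.52 ± 0.30 in females, a difference of 1.41 ± 0.47 (adjusted p = 0.0983). Background was 50.2% of genes called in Cre females and 41.6% in Cre males. In liver-Flcn-/- mice Mt1 rose by 3.23 ± 0.26 in females and 2.93 ± 0.30 in males and Mt2 by 3.92 ± 0.29 and 3.06 ± 0.32, where 38.1 and 28.7% of genes were called, and the difference between the sexes was -0.30 ± 0.36 and -0.86 ± 0.39 (adjusted p = 0.826 and 0.413, 0.676% of genes called).

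Of the wider zinc transporter family, 14 of 19 other listed genes had enough counts. In Cre mice 9 rose with MCD, 2 fell and 3 were not called, with a median log2 fold change of 0.42 against 0.01 over all genes, of which 29.3% were called higher and 28.2% lower. Slc39a5, which in other tissues takes zinc up on the basolateral side of epithelia, rose most, from 1.54 ± 1.19 to 8.07 ± 3.31 CPM (2.36 ± 0.53, adjusted p = 0.000692). Slc39a7, which releases zinc from the endoplasmic reticulum and Golgi, rose from 11.1 ± 2.46 to 24.0 ± 5.76 CPM (1.11 ± 0.15, adjusted p = 2.70e-06). Slc39a3, Slc39a6, Slc39a9, Slc39a11, Slc39a13, Slc30a4 and Slc30a7 rose by 0.32 to 0.72. Slc39a2 and Slc39a1, both importers of the plasma membrane, fell by 0.93 and 0.26 on the log2 scale. Slc30a5, Slc30a6 and Slc30a9 were not called.

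In liver-Flcn-/- mice 3 of the 14 rose with MCD, 2 fell and 9 were not called (median 0.17 against 0.00), where 22.5% of all genes were called in each direction. Slc39a5 rose by 2.22 ± 0.58, Slc39a7 by 0.98 ± 0.16 and Slc39a3 by 0.57 ± 0.12, and Slc39a2 and Slc39a1 fell by 0.82 and 0.32 on the log2 scale. Between genotypes on chow, with 8.62% of all genes called, Slc30a4 and Slc39a13, transporters of intracellular vesicles, were higher in liver-Flcn-/- livers by 0.70 ± 0.14 and 0.47 ± 0.11 (adjusted p = 0.00323 and 0.00973), and 12 were not called. On MCD, with 16.6% of all genes called, Slc39a9 and Slc30a7, which act at the Golgi, were lower by 0.30 ± 0.09 and 0.22 ± 0.07 on the log2 scale (adjusted p = 0.0324 and 0.0397), and Slc30a7 was the only one with a called interaction (-0.33 ± 0.10, adjusted p = 0.0469, with 8.83% of all genes called). Slc30a2, Slc30a3, Slc30a8, Slc39a12 and Tmem163 had at most 7 counts in any library and were not tested. Of the other metallothionein genes Mt3 had at most 3 counts and Mt4 had 0 in all 22 libraries.

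**Figure D5:**
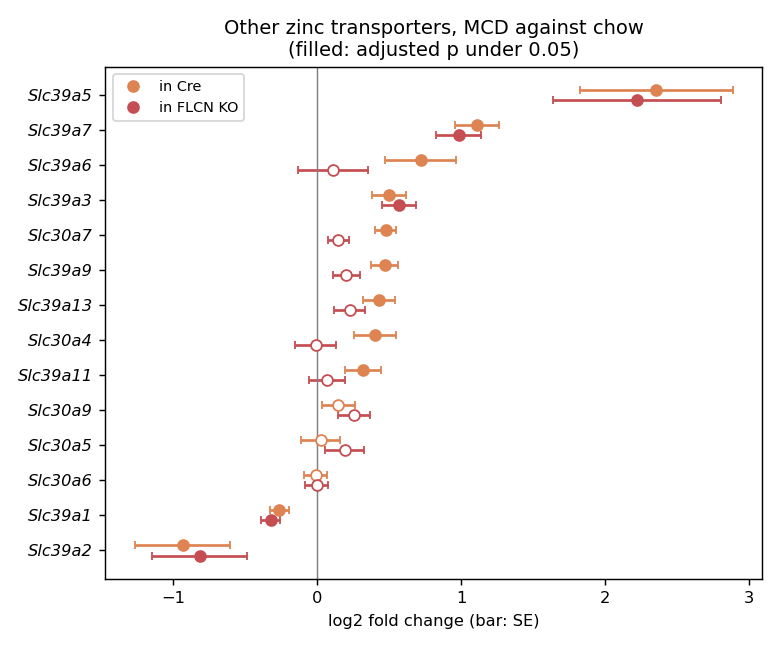
Log2 fold change for MCD against chow of the 14 tested zinc transporters outside the 8 members, in Cre and in liver-Flcn-/- (FLCN KO) mice, ordered by the change in Cre, with bars for the SE and filled points for adjusted p under 0.05. Slc39a5 and Slc39a7 lead in both genotypes, at 2.36 and 1.11 in Cre.

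Mtf1, the gene of the zinc-sensing factor, was not called in any comparison, with 24.3 ± 3.48 CPM on chow and 22.6 ± 3.55 CPM on MCD in Cre livers (-0.10 ± 0.11, adjusted p = 0.419). Of the 4 tested genes of the metal response list, Hmox1, the heme-degrading enzyme induced by metals and oxidative stress, was the only one called. Of all tested genes 57.5 and 45% were called for diet in Cre and liver-Flcn-/- mice. For genotype the shares were 8.62% on chow and 16.6% on MCD, and for the interaction 8.83%. Gclc, of glutathione synthesis, and Hspa1b, a heat shock protein, stood at -0.10 ± 0.15 and -0.68 ± 0.43 for diet in Cre mice, and Hspa1a, with at most 21 counts, was not tested. Hmox1 rose with MCD by 1.63 ± 0.12 in Cre (adjusted p = 1.02e-09) and by 0.52 ± 0.12 in liver-Flcn-/- livers (adjusted p = 0.00169), and the interaction was -1.10 ± 0.17 (adjusted p = 0.000912). On chow it was higher in liver-Flcn-/- livers, at 30.8 ± 1.51 against 19.4 ± 3.42 CPM (0.67 ± 0.12, adjusted p = 0.00134), and on MCD lower (-0.44 ± 0.12, adjusted p = 0.0167).

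Among 16 zinc enzymes the MCD diet raised 2 and lowered 9 in Cre mice (median -0.61), and raised 2 and lowered 8 in liver-Flcn-/- mice (median -0.47). Over all tested genes, the background for this and the following lists, 57.5% were called in Cre (28.2% lower, median 0.01) and 45% in liver-Flcn-/- mice (22.5% lower, median 0.00). Car2, a cytosolic carbonic anhydrase, rose by 4.39 ± 0.37 and 2.94 ± 0.36 in the 2 genotypes, Dpys, dihydropyrimidinase of pyrimidine breakdown, fell by 4.26 ± 0.30 and 3.26 ± 0.27, and Car5a, a mitochondrial carbonic anhydrase, fell by 2.96 ± 0.32 and 2.84 ± 0.31 (adjusted p from 2.37e-10 to 1.47e-06). Sod1, the copper and zinc superoxide dismutase, was lower in liver-Flcn-/- livers on chow (-0.47 ± 0.10, adjusted p = 0.00279) and on MCD (-0.29 ± 0.10, adjusted p = 0.0381).

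Of 7 genes of manganese handling and manganese enzymes, 1 rose and 3 fell in Cre mice on MCD (median -0.20), while 2 rose and 1 fell in liver-Flcn-/- mice (median -0.03). The interaction was called for 4 of the 7, positive for 3 and negative for 1, where 8.83% of all genes were called. Slc40a1, ferroportin, which exports iron and also manganese, was higher in liver-Flcn-/- livers on MCD by 0.98 ± 0.15 (adjusted p = 0.000143), the comparison in which Slc30a10 was higher. Of 15 copper genes 3 were higher and 5 lower on MCD in Cre livers, 4 were higher and 6 lower in liver-Flcn-/- livers, and Cp, the copper-carrying ferroxidase ceruloplasmin, fell by 0.92 ± 0.13 and 0.82 ± 0.13.

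Genes that respond to glucocorticoids and IL-6, which also induce metallothioneins, were counted as well. Of 10 glucocorticoid-responsive genes the diet raised 3 and lowered 3 in Cre mice and raised 3 and lowered 4 in liver-Flcn-/- mice: Per1 and Fkbp5 rose by 1.42 and 1.17 in Cre, and Tsc22d3 and Dusp1 fell by 1.49 and 1.62 on the log2 scale. Of 27 IL-6 and acute phase genes 5 were higher and 12 lower on MCD in Cre mice (median -0.60), against 1 and 12 in liver-Flcn-/- mice (median -0.34). Saa1 and Saa2, acute phase apolipoproteins, fell by 3.81 ± 1.04 and 4.34 ± 1.13 in Cre mice, where Lcn2, an iron-binding acute phase protein, rose by 3.93 ± 0.65. Saa1 and Saa2 varied widely among the Cre chow livers, at 442 ± 779 and 309 ± 562 CPM (SD) against 31.6 ± 14.7 and 15.3 ± 8.50 CPM on MCD, and the groups overlapped.

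Markers of other cells moved with the diet as well. In Cre mice 6 of 8 stellate cell and fibroblast markers rose with MCD and none fell, their summed level going from a median of 327 to 610 CPM with Dcn the most abundant. All 4 tested neutrophil markers rose, from 5.12 to 28.2 CPM summed with S100a9 leading, while Ly6g, Mpo, Elane and Camp had at most 6 counts. Of 8 macrophage markers 4 rose and 1 fell (480 to 551 CPM, led by Lyz2 on MCD), of 8 hepatocyte markers 6 fell and none rose (137286 to 104410 CPM, led by Alb), and all 10 skeletal muscle markers were called higher, with 2628 and 131 CPM in Cre MCD 3 and 4 and 1.18 to 17.1 CPM in the other 3 livers. In liver-Flcn-/- mice 1 stellate marker rose and 1 fell (390 to 406 CPM), 3 neutrophil markers rose (5.60 to 17.9 CPM), 2 macrophage markers rose and 3 fell, and 6 hepatocyte markers fell (121956 to 77918 CPM). Of the remaining lists 1 of 7 endothelial markers was higher and 3 lower in Cre mice on MCD, 3 of 5 erythroid and 3 of 6 cholangiocyte markers were higher, and no lymphocyte marker was called. In liver-Flcn-/- mice on MCD 5 of 7 endothelial, 3 of 6 lymphocyte and 1 of 5 erythroid markers were lower and no cholangiocyte marker was called. Cela1 was the 1 pancreas marker with enough counts, lower in both genotypes. The part of these cells in the member levels was not tested, and in whole liver fewer cells of a type and less RNA per cell cannot be told apart. Without Cre MCD 3, as without any other library, 4 members were called in the Cre diet comparison. On chow 2 of 6 cholangiocyte markers were higher in liver-Flcn-/- livers, led by Spp1 (1.21 ± 0.22, adjusted p = 0.00119), which is also expressed by macrophages.

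After removal of the group means, the levels of Mt1 and Mt2 went together over the 22 livers (Pearson r = 0.932 on log2 CPM), and Slc39a4 had r of 0.684 with Mt1 and 0.672 with Mt2. Slc39a10 went the other way, with r of -0.567 with Mt1, -0.584 with Mt2 and -0.582 with Slc39a4. These values are descriptive, and the livers share sex and uniquely mapped share as given above. The genes most like Mt1 in this sense were AC115752.1 (0.848), Sult2a3, a sulfotransferase (0.847), and Gpat3, an acyltransferase of glycerolipid synthesis (0.830), and those most like Mt2 were Vnn1, a pantetheinase (0.840), Fam118a (0.829) and AC115752.1 (0.801), out of 12839 genes compared. For the other transporters the nearest genes were Atg12, Dyrk2 and Dstyk for Slc30a1 (0.753 to 0.804), Crip2, Lst1 and Galnt6 for Slc39a4 (0.819 to 0.844), Ahctf1, Pdgfra and Frk for Slc39a8 (0.835 to 0.838), Clasp1, Plekha5 and Atp2a2 for Slc39a10 (0.775 to 0.831) and Dgkd, Thbd and Syt1 for Slc39a14 (0.792 to 0.841). Those most like Slc30a10 were Gm2061 (0.876), Selenoi (0.817) and St3gal1 (0.809). Gm2061 is an RNA gene that overlaps Slc30a10 on the opposite strand and had 2 to 52 counts. Whether strand was used in counting is not given in the sources used here, so reads of the 2 genes may not have been separated. The transporters lie on chromosome 1 (Slc30a1 at chr1:191906767-191913247, Slc30a10 at chr1:185454848-185468762 and Slc39a10 at chr1:46807544-46892852), chromosome 15 (Slc39a4, chr15:76612383-76617384), chromosome 3 (Slc39a8, chr3:135825279-135888572) and chromosome 14 (Slc39a14, chr14:70303469-70351425), in GRCm38. Mt2 is overlapped by antisense Gm45774 (0 to 12 counts) and Slc30a1 by antisense 1700034H15Rik (1 to 24 counts), Slc39a8 by 3 RNA genes with at most 36 counts, and Slc39a10 by 2 with at most 21 counts, while Mt1, Slc39a4 and Slc39a14 have no overlapping gene in the annotation.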

How the data were processed

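Liver mRNA was sequenced as single-end reads from 22 mice. The authors trimmed reads with Trimmomatic, aligned them to GRCm38 with STAR and deposited raw counts per gene from HTSeq, without normalization. Versions, annotation release and any collapsing of molecular identifiers are not given in the sources used here. Libraries held from 13751347 to 21144388 counts, a depth that bears on counting error only. The SE and p-values given above also take in the spread between mice.

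Groups came from the labels. Differential expression used edgeR 4.0.16 in R 4.3.3 (mean count of at least 10, TMM factors, 1 fit of 4 groups, two-sided quasi-likelihood test, Benjamini-Hochberg over 14062 genes, threshold 0.05), after the fit was tested on simulated data. SE is the log2 fold change over the root of F. The p-values measure the spread between mice. The source names of the samples carry prefixes that may mark shared litters or cages, but their meaning is not given. Any such sharing was not modelled. No libraries were identical over 50 pairs within groups. Sex was read from Xist and Y-linked counts, and the uniquely mapped share, used in alternatives alone, came from the library statistics published with the data. Members and lists were chosen with earlier results of these data known. Named were the 8 members, Flcn and the 3 genes outside the members most correlated with each member. Also named were all genes of the zinc, metallothionein and metal response lists and at most 3 called genes of each other list and comparison. The most abundant marker and markers at 0 were named too. Some called genes of those lists are given in counts only, and the 4 neutrophil markers with few counts were named after their values were seen. Alternatives were limma-voom 3.58.1, DESeq2 1.42.0, RLE factors, library totals, other filters, only the groups compared, covariates, a replicate block and leaving out libraries. The fits within each sex were added after seeing the data. So were those without the 2 libraries with both Xist and Y-linked reads, the latter at no less than 10% of the male median. Protein sequences were not analysed here.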

Additional observations from a re-analysis of the deposited data

Results flagged for a closer look

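In 3 results male and female livers, as read from the counts, differed by the test of the difference itself. The rise of Mt1 with MCD in Cre mice was larger in males by 2.16 on the log2 scale (adjusted p = 0.00386). The excess of liver-Flcn-/- over Cre livers on chow was larger in males by 2.96 for Mt1 and by 3.53 for Mt2 (adjusted p = 0.00342 for each), with 3 male and 3 female Cre livers and 2 male and 3 female liver-Flcn-/- livers. The male chow livers are also those under 75% uniquely mapped reads, and the part of that share was not tested apart from sex, since no male chow liver lies outside it and no female inside it. The split by sex was made after the spread of Mt1 and Mt2 among the Cre chow livers had been seen, and all 3 results use those same livers, so they restate that observation and are no independent test of it. None of 32 groups, the 8 members in each of the 4 groups, held a liver far from the others by Dixon's test.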

How the results depend on the processing

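Over 1432 alternative values of 40 member results, 1375 stayed on their side of the threshold, 36 gained a call and 21 lost one. In 59 values, from 12 results that were not called, the sign changed, and 0 of these values were called. Among them the Mt1 interaction reached 0.20, Mt2 on MCD was -0.14 in female livers, and Slc39a10 on chow reached 0.62. Calls of Mt1, Mt2, Slc30a10 and Slc39a8 for diet held in both genotypes in each alternative. For diet in Cre mice, library totals as the only scaling called 7 members in place of 4, and 9648 of all genes in place of 8089. For genotype on chow, with 1 member called, limma-voom, library totals, the uniquely mapped share or sex as covariate and leaving out the 2 libraries with both Xist and Y-linked reads each called 2, male livers 3, and 0 were called with only the groups compared, in female livers, without the 5 libraries of low uniquely mapped share or with the replicate block. Leaving out each library gave 0 to 2. For genotype on MCD 2 were called with only the groups compared, with either covariate, without those 5 libraries and in male livers, and leaving out each library gave 1 to 2. For the interaction DESeq2, either covariate, the replicate block and female livers called 1 and male livers 2, and leaving out each library gave 0 to 1. The added calls were Mt1, Slc39a14, Slc39a8 or Slc39a4 for genotype on chow, Mt1, Mt2 or Slc39a8 on MCD, and Slc30a10, Mt2 or Mt1 for the interaction. The cause was not tested. The interaction needs all groups, so no fit of only the groups compared was run for it. Of 93 tested genes in the pathway lists, 13 were called for genotype on chow, against 5 without the 5 libraries and 6 in female livers. On MCD 22 were called, against 8 in male livers, and 12 for the interaction, against 7 without a filter on low counts, 6 with the replicate block, 1 in male livers and 7 without the 2 libraries.

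Counts over all genes moved by over 1.5 times as follows: 6328 for diet in liver-Flcn-/- mice to 4042 in male livers. For genotype on chow 1212 became 494 without the 5 libraries, 670 without FLCN KO Chow 4, 611 in female and 549 in male livers, and on MCD 2333 became 1387 in male livers. For the interaction 1242 became 779 without the 5 libraries, 552 with the replicate block, 819 without Cre MCD 1, 820 without FLCN KO Chow 4, 194 in male livers and 690 without the 2 libraries. With library totals the share of calls that were higher went from 50.9 to 81.9% for diet in Cre, from 49.97 to 77.0% for diet in liver-Flcn-/- mice, from 64.0 to 92.1% for genotype on chow and from 37.3 to 12.5% for the interaction. Replicate numbers did not pair the mice: mean correlations of same-numbered livers were -0.0842, -0.0112, 0.0614 and 0.129, and not every pair was above 0.1. Low counts limit the precision of Mt1 and Mt2 in the Cre chow livers, the lowest being 31 and 6.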
